A study of Mus musculus with 6 samples.

Results

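The genes described here encode 10 transcription factors: Sox4, Sox9, Sox11, Runx1, Runx2, Twist1, Twist2, Snai1, Snai2 and Prrx1. They were chosen by name with earlier results of these data known, and each was found as 1 row among the 25746 genes of the count table. All 10 were among the 12192 genes with enough reads to be tested. The samples were fibroblasts of the mouse heart, its main matrix-producing cells, with Acta2 deleted (KO) or intact (WT). Acta2 encodes smooth muscle α-actin, the actin that marks fibroblasts once they turn into contractile myofibroblasts. For RNA-seq there were 2 libraries of each genotype, and for ATAC-seq, which maps open chromatin, 1 library of each genotype made from 10000 cells.

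The labels describe a culture protocol and an animal protocol and do not say which of them each library came from. In culture, fibroblasts from WT mice and from mice with floxed Acta2 alleles (Acta2fl/fl) both received an adenovirus carrying Cre recombinase (Adeno-Cre) and then TGFβ for 2 days, so WT cells also carried Cre. In the animal, a tamoxifen-inducible Cre (MerCreMer) was switched on with 75 mg/kg tamoxifen a day for 5 days from 6 weeks of age. The left coronary artery was tied at 9 weeks, with tamoxifen again around the operation, and eGFP+ cells of the Tcf21 lineage were sorted. No untreated or uninjured sample was analysed here. Nothing says whether the replicates came from separate animals or cultures, so the p-values measure only the spread between these libraries, which may be technical.

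As background, SOX proteins bind DNA with an HMG box. Sox9 drives cartilage formation and matrix genes, while Sox4 and Sox11 are close relatives of each other that act in progenitor cells. RUNX proteins bind DNA together with CBFB, Runx1 in blood formation and Runx2 in bone formation. TWIST proteins are basic helix-loop-helix factors that pair with E proteins and are held back by ID proteins, and SNAIL proteins are zinc finger repressors of epithelial genes. Prrx1 is a homeobox factor of mesenchyme. In injured heart these genes are studied as regulators of fibroblast activation, matrix deposition and epithelial-mesenchymal transition (EMT).

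The 4 RNA libraries held between 8429166 and 11370115 estimated counts. The targeted gene followed the labels: Acta2 had 2921.15 and 2909.21 counts in the KO libraries and 18230 and 19889.62 in the WT libraries, a log2 fold change of -3.07. Levels below are CPM, counts scaled to a common library size with TMM factors, and where genes are compared with each other, CPM per kb of exon. Markers are said to rise or fall where edgeR called them at an adjusted p under 0.05. Over all tested genes, 18.3% were called higher and 17.4% lower in KO. Of the fibroblast markers, 7 of 8 fell and none rose, with summed levels of 2685 and 2682 CPM in KO against 3593 and 3473 CPM in WT. Macrophage and leukocyte markers rose for 6 of the 7 tested, with sums of 176 and 178 CPM in KO against 101 and 97.0 CPM in WT, and Fcgr1 had fewer than 4 counts in every library. Endothelial markers rose for 7 of 9 and Flt1, a VEGF receptor, fell (log2 fold change -0.64), with sums of 144 and 155 CPM in KO against 115 and 109 CPM in WT. Myh6, Myh7, Nppa and Ryr2 of cardiomyocytes, Sox10 and Foxd3 of Schwann cells and Sp7, Ibsp, Col2a1 and Acan of bone and cartilage cells had fewer than 4 counts in every library. Among the tested markers of these lists, 1 of 1 fell for cardiomyocytes (log2 fold change -0.74). For Schwann cells 1 of 2 fell, Cdh19, with 5 and 5 counts in KO against 22 and 19 in WT (-2.37). Matn3, the only tested marker of bone and cartilage cells, also fell (-1.11). Pericyte and smooth muscle markers fell for 3 of the 5 tested and rose for 1, with a median of -0.58. In bulk libraries, fewer cells of a type and less RNA per cell cannot be told apart. The part these markers play in the values of the 10 factors was not tested.

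Of the 10 factors, 1 rose in KO (Sox11) and 5 fell (Sox9, Runx1, Twist2, Snai1 and Prrx1). The other 4 (Sox4, Runx2, Twist1 and Snai2) did not pass the edgeR quasi-likelihood test at a Benjamini-Hochberg adjusted p of 0.05. The test called 35.7% of all 12192 genes, 18.3% as higher and 17.4% as lower in KO. Calls in the marker lists above and the gene lists below are to be read beside these shares and were not tested against them. Both KO libraries lay below both WT libraries for 7 of the 10, beside 32.8% of all tested genes, and above them for 1, beside 34.3%. The median log2 fold change was -0.40 over the 10 and 0.0014 over all tested genes, and the median size of a change over all genes was 0.21. With 10 genes these figures describe the group and set it apart from no other. Fewer genes were called by other settings: 16.9% by DESeq2, 14.6% by edgeR with a biological coefficient of variation (BCV) of 0.1 assumed and 3.26% with 0.2. Only Sox11 kept its call under all 12 alternative settings.

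**Figure D1:**
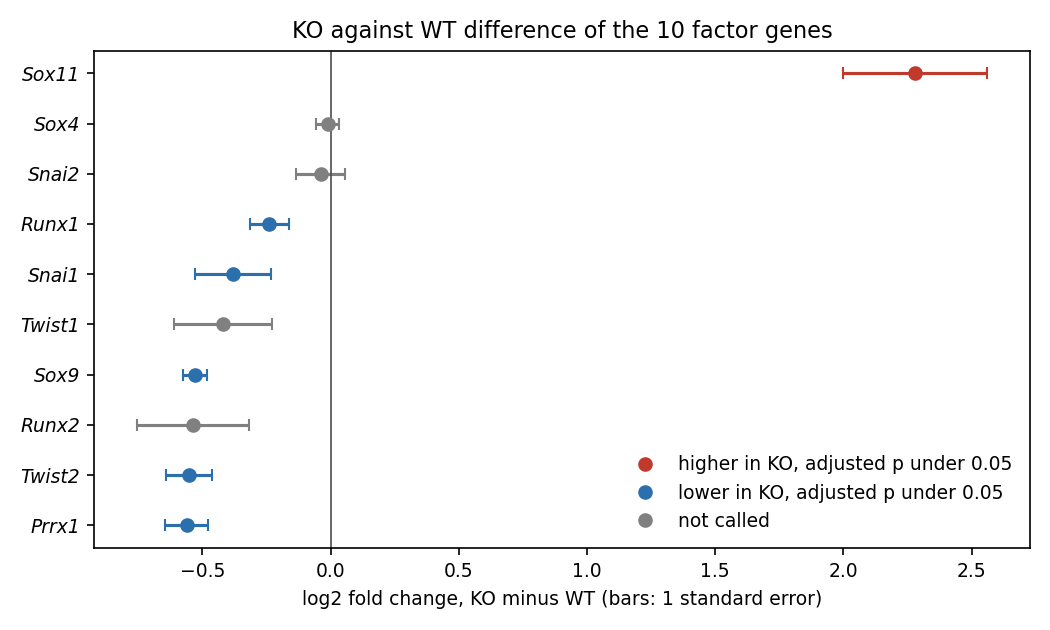
Log2 fold change, KO minus WT, of the 10 factor genes with bars of 1 standard error from the edgeR fit over 2 KO and 2 WT libraries, coloured by call. Sox11 stands alone on the right at 2.28, and the 5 called lower genes lie between -0.56 and -0.24.

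The factors spanned a wide range of levels. Per kb of exon, Sox9 was the highest in WT at 53.1 ± 3.05 CPM per kb (SD, n = 2), a level above that of 89.2% of tested genes, followed by Sox4 at 49.3 ± 1.93 CPM per kb. Snai2 at 15.1, Twist2 at 12.6, Snai1 at 9.18, Twist1 at 5.34, Runx1 at 4.38 and Prrx1 at 4.06 CPM per kb came next. Runx2 at 0.805 and Sox11 at 0.205 CPM per kb were the lowest, the latter above only 3.26% of tested genes. In KO the order changed at both ends: Sox4 stood above Sox9, with 49.0 against 36.7 CPM per kb, and Sox11 stood above Runx2, with 1.01 against 0.554 CPM per kb. Neighbours in either order did not overlap over their 2 libraries, although n = 2 leaves their spread poorly known. In WT, Sox9 and Sox4 were nearly level in library 2, at 50.9 and 50.7 CPM per kb. Sox4 also shares exon windows with an antisense gene, as given below.

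**Figure D2:**
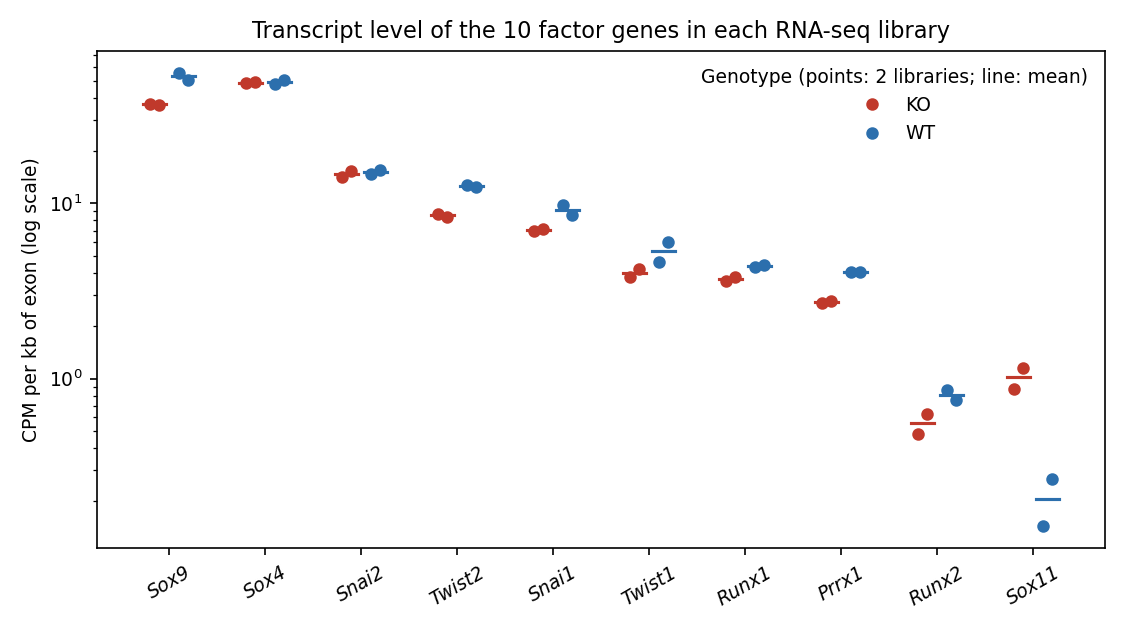
Transcript level of each factor gene in CPM per kb of exon, on a log axis, with 1 point per RNA library (2 KO, 2 WT) and a line at the mean of each genotype. Sox9 and Sox4 lie at the top between 36.6 and 55.2, and Sox11 shows the widest gap between genotypes, from 0.144 and 0.266 in WT to 0.875 and 1.15 in KO.

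Open chromatin was read from 1 peak list per genotype, so every ATAC-seq value here describes 2 libraries with no replicate check. The fold of a peak is the authors' MACS2 enrichment over the background of its own library, and its q is the caller's adjusted p, so values are compared within a list and set side by side between lists. The median fold was 6.38 in the KO list of 121748 peaks and 5.75 in the WT list of 123935. Over the 10 genes and 50 kb either side there were 148 KO and 163 WT peaks. Of the KO peaks 29, or 19.6%, overlapped no WT peak, beside 23.7% of all KO peaks. Of the WT peaks 37, or 22.7%, overlapped no KO peak, beside 24.4% of all. Among peaks with a -log10 q of at least 5, 11 of 112 in KO and 8 of 106 in WT were in 1 list only, which is 9.8% beside 11.2% over the genome and 7.5% beside 7.38%. With an overlap of at least 0.5 of both peaks asked for, 48 KO peaks (32.4%, beside 39.1% of all) and 63 WT peaks (38.7%, beside 40.2%) had no partner. These shares were not tested against those of the genome. Counts of such peaks at single loci below are to be read beside the genome shares and were not tested either. Coordinates throughout are those of mm10 (GRCm38), the build of the files.

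All 10 annotated start sites had a peak within 1 kb in both lists, as did 93.6% of the start sites of tested genes in the KO list and 93.6% in the WT list. A start site peak in 1 list only was found for 1.52% of tested genes and for none of the 10. For 9 of the 10 the start peak was higher by fold than at least 84.1% of the KO list and at least 84.4% of the WT list. Runx2 was the exception, with a weak peak at its annotated start. Peak density around the genes ran from 1.96 peaks per 100 kb at Twist1 to 20.1 at Snai1 in the KO list, and from 2.90 at Snai2 to 21.98 at Snai1 in the WT list, beside a median of 10.6 over all tested genes in each list.

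**Figure D3:**
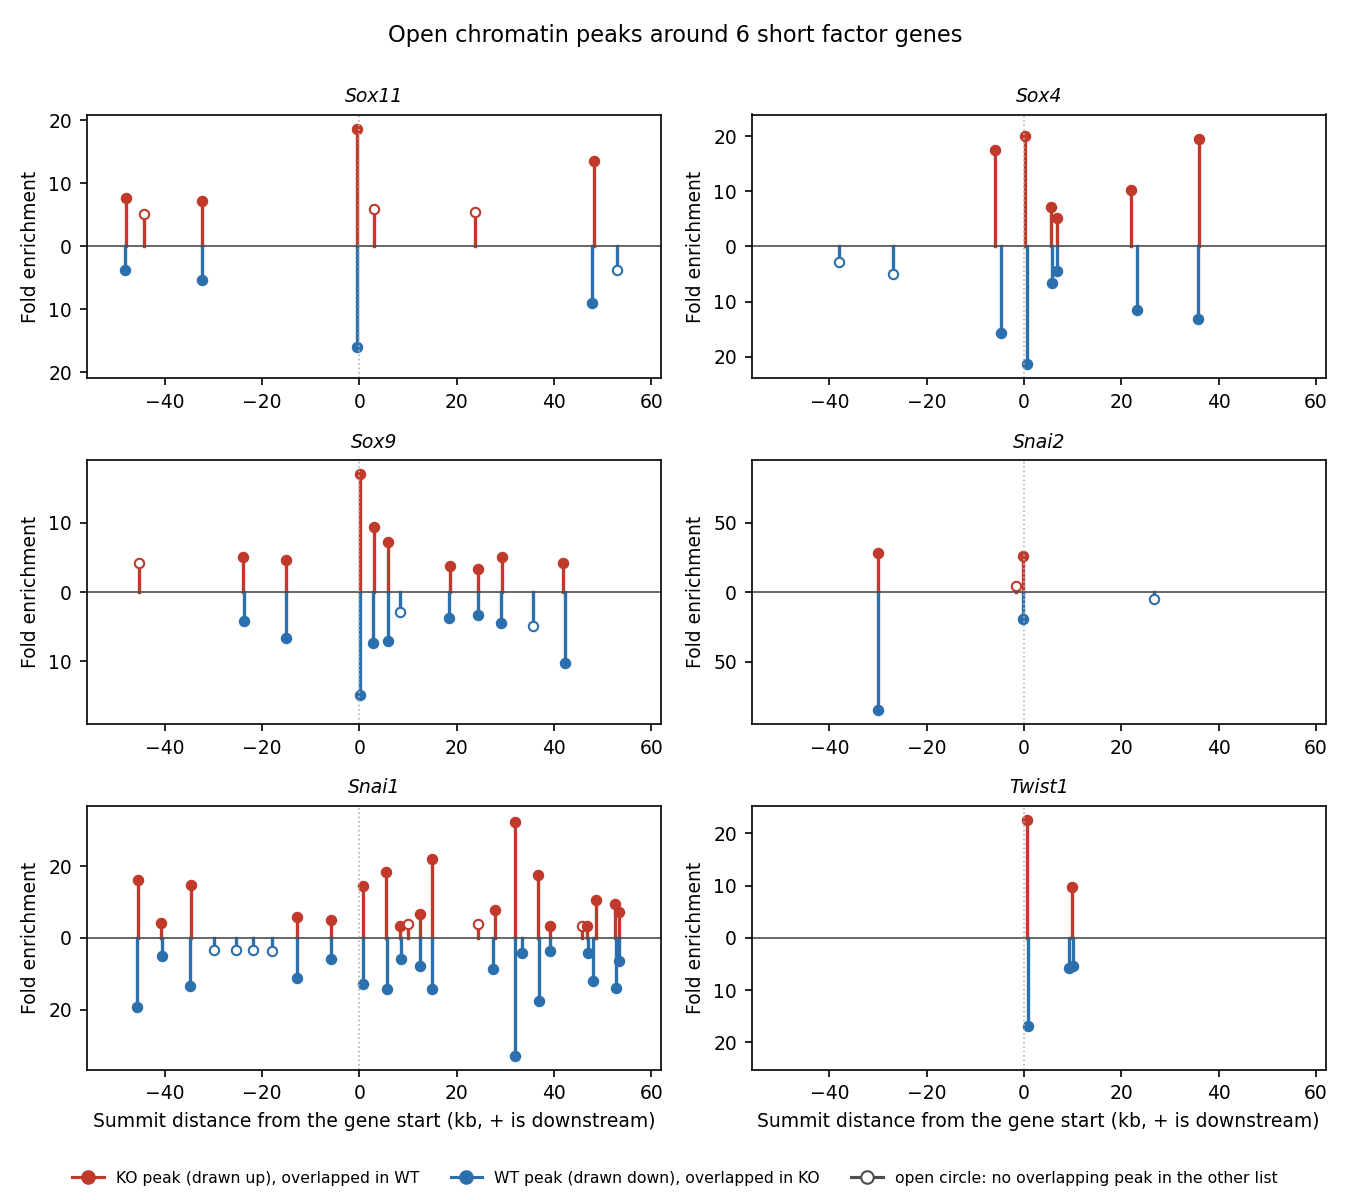
Peaks around Sox11, Sox4, Sox9, Snai2, Snai1 and Twist1, each drawn at its summit's distance from the gene start in kb, with fold enrichment upward for the KO list and downward for the WT list; marks distinguish peaks found in 1 list only. Sox11 has 7 KO and 5 WT peaks, the tallest line is the WT peak 30.0 kb upstream of Snai2 at a fold of 84.6, and Twist1 has only 2 and 3 peaks.

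**Figure D4:**
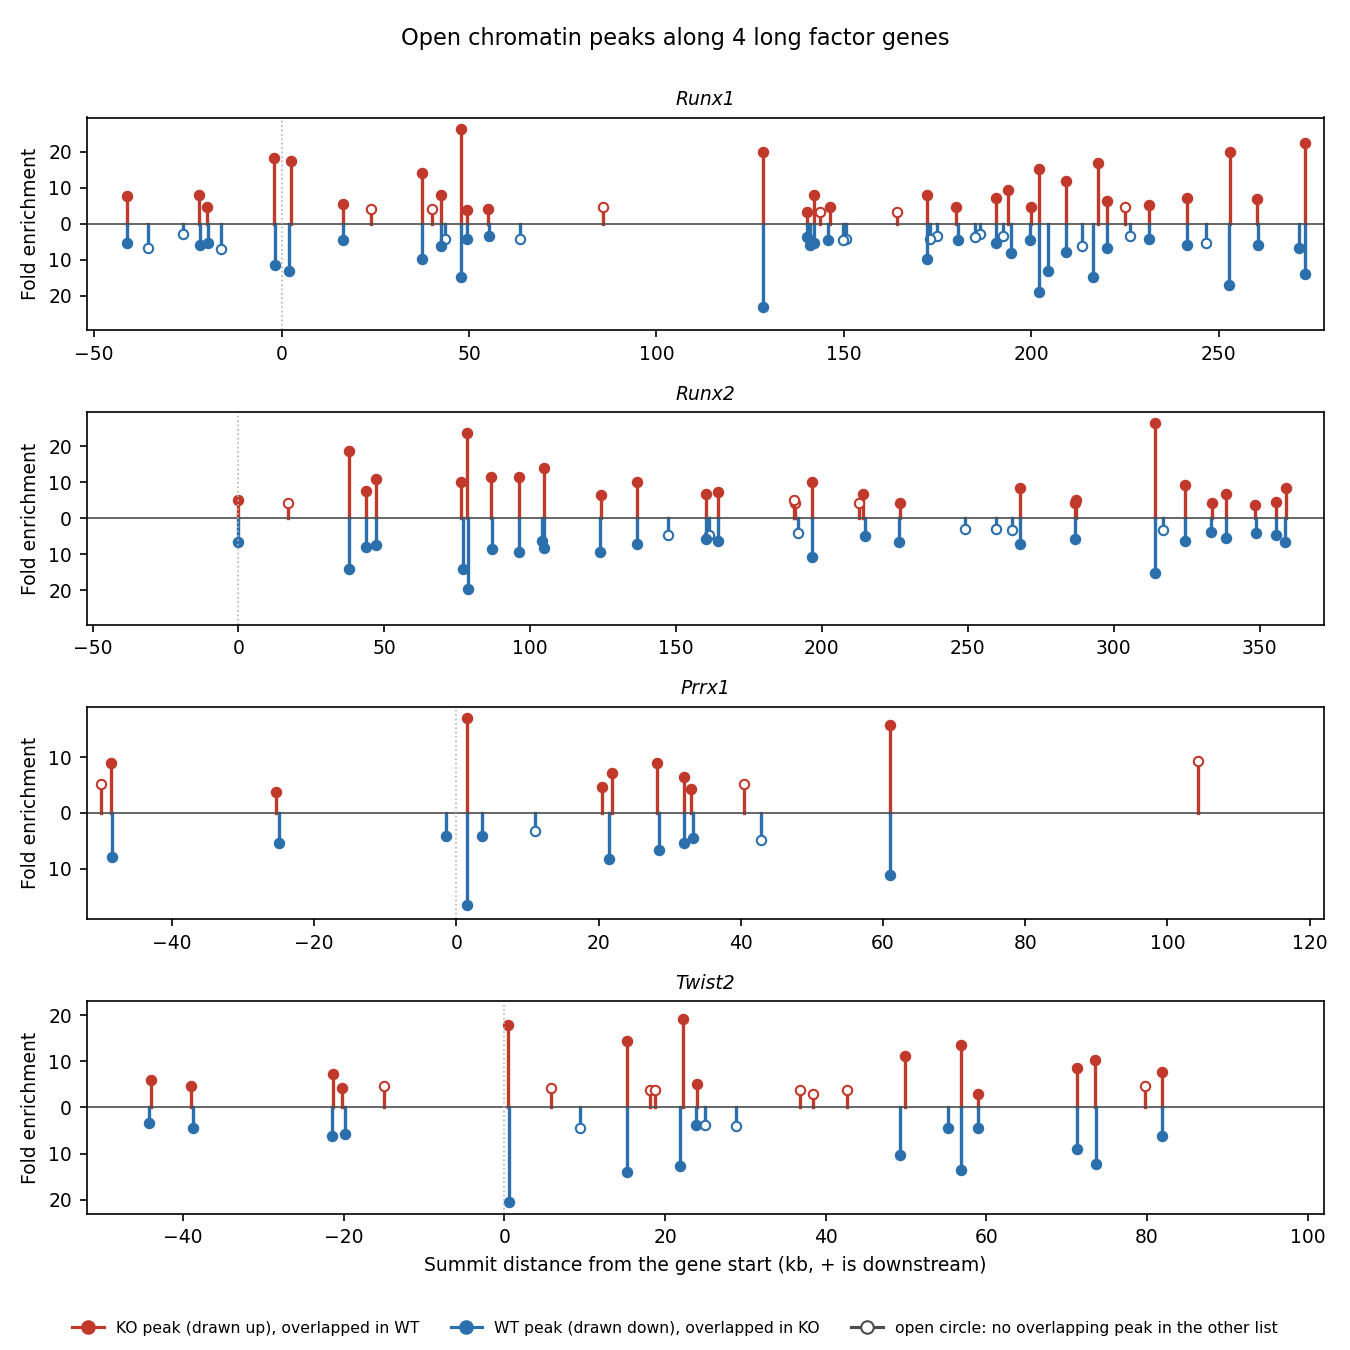
The same plot along the longer genes Runx1, Runx2, Prrx1 and Twist2, from 50 kb before each gene to 50 kb beyond it. Peaks spread through the introns of Runx1, with 22 of its 35 KO peaks and 28 of its 47 WT peaks there. The tallest KO peaks of Runx1 and Runx2 both reach a fold of 26.4.

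Sox11 (ENSMUSG00000063632, chr12:27334264-27342574, minus strand) showed the largest difference among the factors. It had 7.27 and 9.58 CPM in the KO libraries and 1.20 and 2.21 CPM in the WT libraries, from 83 and 105 against 10 and 20 counts. Both KO libraries were high and both WT libraries low, with no overlap. The KO mean was 8.43 ± 1.63 CPM and the WT mean 1.71 ± 0.716 CPM (SD, n = 2 each), a log2 fold change of 2.28 (SE 0.28, edgeR adjusted p = 2.79e-07), or 4.85-fold. Leaving out 1 library at a time gave log2 values from 1.92 to 2.80, and the call held each time. Its level in KO was above that of 21.3% of tested genes, so it remained a gene of low level.

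Sox4 (ENSMUSG00000076431, chr13:28948919-28953713, minus strand), the nearest relative of Sox11 among the 10, had 233 and 237 CPM in KO against 230 and 243 CPM in WT. The 2 genotypes overlapped, and the log2 fold change was -0.01 (SE 0.044, edgeR adjusted p = 0.867). Under the 12 alternative settings it stayed between -0.05 and 0.03 and was never called. A caution applies to this gene: 53.6% of its 100-base exon windows are shared with Gm26735, a noncoding gene on the opposite strand. The library kit is not stated to keep strand, so reads from both cannot be told apart.

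Sox9 (ENSMUSG00000000567, chr11:112782224-112787760, plus strand) fell in KO. It had 153 and 151 CPM in the KO libraries and 228 and 210 CPM in the WT libraries, and the WT libraries were the higher ones without overlap. The means were 152 ± 1.13 and 219 ± 12.6 CPM (SD, n = 2 each), a log2 fold change of -0.53 (SE 0.048, edgeR adjusted p = 1.18e-09), or 1.44-fold lower in KO. Only the setting with a BCV of 0.2 ended the call, with an adjusted p of 0.525, and over all settings the p ranged from 1.55e-20 to that value.

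Of 16 other SOX genes listed, 8 had fewer than 4 counts in every library and 5 were tested, of which 1 rose: Sox17, an endothelial and endoderm factor, with 9.38 and 8.49 CPM in KO against 5.40 and 5.75 CPM in WT (log2 fold change 0.68, SE 0.19, edgeR adjusted p = 0.00657). Its call was lost with DESeq2 and without 1 KO library, and 13.3% of its exon windows are shared with an antisense gene. Sox5 and Sox6, the partners of Sox9 in cartilage, were not called, with log2 fold changes of 0.02 and -0.16. The median over the 5 was 0.02.

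Among 19 genes that SOX9 is known to drive in cartilage, 11 had fewer than 4 counts in every library, Col2a1 and Acan among them, and 5 were tested. Col11a1, a fibrillar collagen, fell from 138 and 141 CPM in WT to 67.3 and 72.7 CPM in KO (log2 fold change -0.99, SE 0.056, edgeR adjusted p = 4.77e-14). Matn3, a cartilage matrilin, was lower at 1.14 and 1.10 CPM against 2.64 and 2.21 CPM (log2 fold change -1.11, adjusted p = 0.0304), and leaving out any 1 library ended that call. No gene of the list rose, and the median was -0.77. Of 9 genes known as SOX4 and SOX11 targets, 6 were tested, 3 fell and none rose, with a median of -0.27. Tubb3, a neuronal tubulin, fell by 0.79 on the log2 scale, Ccnd1, a G1 cyclin, by 0.67, and Ezh2, a histone methyltransferase, by 0.45, while Sox11 itself rose. Ccnd1 shares 19.6% of its exon windows with LTO1, and the Ezh2 call was lost with DESeq2.

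At the Sox11 locus the KO list held 7 peaks and the WT list 5. The start peak had a fold of 18.7 in KO and 16.0 in WT, higher than 90.4% of KO peaks and 89.9% of WT peaks. Of the KO peaks, 3 (42.9%, beside 23.7% of all KO peaks) overlapped no WT peak. Each had a -log10 q of at least 5: at 44.3 kb upstream (fold 5.10), in the exon 3.04 kb from the start (fold 5.95) and 23.7 kb downstream (fold 5.53). All 3 folds lie below the median of the KO list, 6.38. One WT peak, 52.9 kb downstream with a fold of 3.70, had no KO partner. A peak in both lists, with its KO summit 48.2 kb downstream, had folds of 13.6 in KO and 9.04 in WT. Nearest tested neighbours were far away: Cmpk2, at 854.4 kb, rose by 0.52 on the log2 scale and Rps7, at 1288.3 kb, fell by 0.18.

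Because Sox11 was the factor with the largest change, its promoter (RefSeq, GRCm38.p6, 250 bases before to 50 bases after the RefSeq start, gene strand, chr12:27342669-27342968) is shown first. That RefSeq start differs from the gene start used for the distances of peaks. The 2 lines after the promoter give 100 bases either side of the summits of the intergenic peaks found in KO alone, at chr12:27386732-27386932 and chr12:27318754-27318954, on the plus strand. Capitals mark letters searched on both strands: TGTGGT (RUNX), CAGACA (the SMAD-bound CAGA element), GGAATG (TEAD) and TAATTA (paired-type homeobox).
Sox11 promoter: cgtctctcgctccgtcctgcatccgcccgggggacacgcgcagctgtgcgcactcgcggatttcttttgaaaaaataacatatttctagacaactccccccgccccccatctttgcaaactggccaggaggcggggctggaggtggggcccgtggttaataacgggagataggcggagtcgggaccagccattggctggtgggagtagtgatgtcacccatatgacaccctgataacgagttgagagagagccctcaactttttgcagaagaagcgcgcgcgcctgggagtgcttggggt
Sox11 upstream KO peak: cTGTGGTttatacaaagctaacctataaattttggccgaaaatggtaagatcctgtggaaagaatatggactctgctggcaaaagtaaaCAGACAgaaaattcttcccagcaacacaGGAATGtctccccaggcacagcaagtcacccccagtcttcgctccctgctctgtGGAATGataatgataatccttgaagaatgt
Sox11 downstream KO peak: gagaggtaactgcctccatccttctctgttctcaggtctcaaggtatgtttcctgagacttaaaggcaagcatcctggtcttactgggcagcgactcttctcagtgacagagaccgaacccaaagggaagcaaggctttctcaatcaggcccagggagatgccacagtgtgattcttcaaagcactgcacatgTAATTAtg
The promoter held none of the 9 motifs searched. The upstream peak held 1 RUNX, 1 CAGA and 2 TEAD matches, and the downstream peak 1 TAATTA. Such letters are common: of the 201-base summit windows of all KO peaks, 15.6% held the RUNX letters, 20.8% the CAGA letters, 14.1% the TEAD letters and 2.66% TAATTA.

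At Sox9 the start peak had folds of 17.0 in KO and 14.8 in WT. The locus held 10 KO and 11 WT peaks, of which 1 and 2 were in 1 list only. The WT-only peak with a -log10 q of at least 5 lay 35.8 kb downstream, with a fold of 4.93. A peak with its WT summit 42.2 kb downstream, picked out after its values were seen, was in both lists with a fold of 10.3 in WT and 4.25 in KO. The window around its WT summit (chr11:112824369-112824569, plus strand) is shown because it had the largest gap in fold between the lists near Sox9, with the AP-1 letters TGANTCA in capitals, a motif in 11.8% of all WT peak windows.
Sox9 downstream WT peak: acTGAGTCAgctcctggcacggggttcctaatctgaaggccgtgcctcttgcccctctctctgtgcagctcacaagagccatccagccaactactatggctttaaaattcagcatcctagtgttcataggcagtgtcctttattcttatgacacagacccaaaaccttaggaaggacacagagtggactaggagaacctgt
Sox4 had 6 KO and 8 WT peaks and a start peak of 20.0 in KO and 21.4 in WT. No KO peak there lacked a WT partner, and 2 WT peaks lacked a KO partner, 1 of them with a -log10 q of at least 5 (27.0 kb upstream, fold 4.93).

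Runx1 (ENSMUSG00000022952, chr16:92601466-92826149, minus strand) was slightly lower in KO. Its levels were 43.4 and 45.9 CPM in KO against 51.8 and 53.5 CPM in WT, with the KO libraries below both WT libraries. The means of 44.6 ± 1.79 and 52.7 ± 1.22 CPM (SD, n = 2 each) gave a log2 fold change of -0.24 (SE 0.076, edgeR adjusted p = 0.0153), or 1.18-fold lower. This is close to the median size of change over all genes, 0.21. Its call was lost with DESeq2 (adjusted p = 0.167), with either assumed BCV, without KO library 1 and without WT library 2, and the adjusted p ranged from 0.0109 to 0.984 over the settings.

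Runx2 (ENSMUSG00000039153, chr17:44495987-44814797, minus strand) had 4.24 and 5.56 CPM in KO against 7.56 and 6.66 CPM in WT. Both KO libraries were lower than both WT libraries, but the log2 fold change of -0.54 (SE 0.22) did not pass the edgeR test (adjusted p = 0.0558). Without KO library 2 it was -0.75 with an adjusted p of 0.0348. The gene had 48.4 to 63.1 counts a library.

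Cbfb, the common partner of all RUNX proteins, had 58.8 and 59.0 CPM in KO against 59.5 and 63.0 CPM in WT (log2 fold change -0.06, edgeR adjusted p = 0.548). Runx3 had fewer than 4 counts in every library. Of 9 tested partners and corepressors 2 fell and none rose, with a median of -0.19. Runx1t1, a corepressor of the ETO family, fell from 23.4 and 24.997 CPM in WT to 13.2 and 14.9 CPM in KO (log2 fold change -0.79, SE 0.13, adjusted p = 1.60e-05). Its relative Cbfa2t2 was lower by only 0.19 (adjusted p = 0.0428), lost that call under several settings, DESeq2 among them, and shares 5.4% of its windows with a pseudogene.

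Of 17 genes known as RUNX2 targets in bone, 7 had fewer than 4 counts in every library, Sp7 and Ibsp among them, and 5 were tested: 4 fell and 1 rose, with a median of -0.20. Col1a1, the main fibrillar collagen chain, fell by 0.15 on the log2 scale, Spp1 (osteopontin) by 0.20 and Mmp13, a collagenase, by 0.66. The fourth, Ifitm5, a bone membrane protein, fell by 1.66 at levels of at most 1.48 CPM, and shares 19.7% of its windows with another gene. Alpl, the alkaline phosphatase of mineralising cells, rose with 2.80 and 2.74 CPM in KO against 0.720 and 0.664 CPM in WT (log2 fold change 1.99, SE 0.43, edgeR adjusted p = 6.78e-04), from 32 and 30 against 6 and 6 counts. So within this list Alpl went up while Mmp13 went down, beside a Runx2 level that did not pass the test.

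Both RUNX genes have a distal and a proximal start, and the chromatin at the distal ones differed in outline between the lists. At the distal start of Runx1 (chr16:92826149) the WT peak ran from 92823270 to 92826340 and covered the start, while the KO peak ran from 92822309 to 92825593 and ended before it. Their folds were 13.1 and 17.4. Of the 300 bases of the distal promoter, 300 lay in a WT peak and 0 in a KO peak. A further peak 1.9 kb upstream was in both lists (fold 18.3 in KO and 11.5 in WT). At the distal start of Runx2 the KO peak was 303 bases wide with a fold of 5.10 and the WT peak 782 bases with a fold of 6.57, covering 126 and 300 of the 300 promoter bases. The KO peak there was higher than only 33.8% of its list. Peak edges come from separate calls on 1 library each, so these outlines have no error attached.

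The proximal starts were open in both lists. For Runx1, 128.8 kb into the gene, the folds were 20.0 in KO and 23.0 in WT, the highest WT peak of that locus. For Runx2, 78.1 kb into the gene, they were 23.8 and 19.7. The highest KO peak of Runx1 lay in an intron 47.8 kb from the distal start (fold 26.4 in KO, 14.8 in WT), and that of Runx2 in an intron 314.2 kb from it (fold 26.4 and 15.2). Over the whole Runx1 locus 6 of 35 KO peaks (17.1%, beside 23.7% of all) and 15 of 47 WT peaks (31.9%, beside 24.4%) were in 1 list only. Of these, 2 in KO and 4 in WT had a -log10 q of at least 5. Those 4 WT peaks had folds from 5.34 to 6.98 and the 2 KO peaks a fold of 4.68. The Runx2 locus held 30 KO and 33 WT peaks, with 4 and 7 in 1 list only and 1 of these, an intronic KO peak, with a -log10 q of at least 5. The protein-coding gene Supt3 overlaps Runx2 on the opposite strand, so peaks there cannot be given to Runx2 alone.

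The distal promoters are printed because both carry the RUNX letters in tandem just after the RefSeq start, followed by the proximal promoter of Runx1 for contrast (RefSeq, GRCm38.p6, gene strand). They lie at chr16:92826025-92826324, chr17:44814578-44814877 and chr16:92697280-92697579. Capitals mark ACCACA, the reverse complement of TGTGGT (RUNX), CAGGTG (the E-box bound by SNAIL proteins) and GGAATG (TEAD).
Runx1 distal promoter: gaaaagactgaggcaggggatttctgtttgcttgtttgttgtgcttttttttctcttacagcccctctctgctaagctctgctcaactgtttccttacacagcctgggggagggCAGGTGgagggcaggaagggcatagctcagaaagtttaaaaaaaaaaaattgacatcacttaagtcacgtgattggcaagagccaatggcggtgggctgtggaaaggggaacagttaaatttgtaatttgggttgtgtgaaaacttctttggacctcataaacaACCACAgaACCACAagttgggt
Runx2 distal promoter: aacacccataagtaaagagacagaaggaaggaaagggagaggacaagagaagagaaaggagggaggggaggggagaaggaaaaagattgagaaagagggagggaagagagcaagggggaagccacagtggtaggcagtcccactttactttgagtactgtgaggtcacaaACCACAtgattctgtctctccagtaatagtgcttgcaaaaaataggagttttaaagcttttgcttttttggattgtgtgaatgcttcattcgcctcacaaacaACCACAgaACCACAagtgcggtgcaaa
Runx1 proximal promoter: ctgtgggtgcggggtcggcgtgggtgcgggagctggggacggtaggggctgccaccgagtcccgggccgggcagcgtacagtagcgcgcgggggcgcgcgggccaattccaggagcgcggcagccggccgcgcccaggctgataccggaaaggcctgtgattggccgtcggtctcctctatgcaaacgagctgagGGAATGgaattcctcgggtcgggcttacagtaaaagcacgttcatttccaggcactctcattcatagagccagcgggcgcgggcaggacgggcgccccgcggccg
Counted from the RefSeq start of each promoter, the paired letters begin at bases 29 and 37 in Runx1 and at bases 24 and 32 in Runx2. A further copy in Runx2 lies 80 bases before its RefSeq start. Both RefSeq starts lie further into the gene than the distal starts used for the peaks, so these positions do not count from the latter. The proximal Runx1 promoter held no RUNX letters. A single copy is common, in 16.8% of all 32851 mouse promoters of this length. The tandem ACCACANNACCACA, searched for after these sequences were seen, was in 7 of them, or 0.021%, on either strand. Of the 7, 3 belong to Runx1, Runx2 and Runx3, and 1 more (Gm16225) overlaps the Runx3 promoter. The stretch around it is shown for the 3 RUNX genes.
Runx1: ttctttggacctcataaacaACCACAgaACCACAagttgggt
Runx2: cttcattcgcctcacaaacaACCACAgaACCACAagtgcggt
Runx3: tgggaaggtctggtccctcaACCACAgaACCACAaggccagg
Over these 42 bases Runx1 and Runx2 were identical at 32, and each matched Runx3 at 23, of which 12 are the same by the choice of the motif. Outside the motif this leaves 20 and 11 of 30 bases. The match describes letters only and says nothing of binding in these cells. The distal promoters were also poorer in G and C, at 45.0% for Runx1 and 45.3% for Runx2, than the proximal Runx1 promoter at 69.0% and the median promoter at 52.7%.

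Twist2 (ENSMUSG00000007805, chr1:91801461-91848028, plus strand) fell in KO. It had 27.7 and 26.7 CPM in the KO libraries and 40.5 and 39.3 CPM in the WT libraries, so the KO pair lay well below the WT pair. The means of 27.2 ± 0.722 and 39.9 ± 0.857 CPM (SD, n = 2 each) gave a log2 fold change of -0.55 (SE 0.090, edgeR adjusted p = 2.00e-05), or 1.47-fold lower. Only the assumed BCV of 0.2 ended the call (adjusted p = 0.509). As with Sox4, much of the gene is covered from the other strand: Gm29100 shares 44.8% of its exon windows, so part of the reads could be antisense.

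Twist1 (ENSMUSG00000035799, chr12:33957671-33959829, plus strand) had 6.22 and 6.84 CPM in KO against 7.56 and 9.84 CPM in WT. The WT libraries were both higher, by differing amounts, and the log2 fold change of -0.42 (SE 0.19) did not pass the edgeR test (adjusted p = 0.0894). Leaving out WT library 1 gave -0.59 with an adjusted p of 0.0367, and leaving out WT library 2 gave -0.21 with 0.568, so its value rests on which WT library is read.

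Among the partners of TWIST, 8 were tested, of which 3 rose and 2 fell, with a median of 0.13. Id2, an inhibitor that takes E proteins away from their partners, rose from 42.3 and 43.8 CPM in WT to 85.1 and 88.0 CPM in KO (log2 fold change 1.01, SE 0.068, edgeR adjusted p = 2.75e-12). Id3 rose by 0.46 on the log2 scale, while Id1 fell by 0.38 and Id4 was not called at -0.13, so the 4 inhibitors did not move together. Tcf4, an E protein, fell by 0.33 (adjusted p = 3.25e-04), and the E proteins Tcf3 and Tcf12 were not called at 0.23 and 0.03. Hand2, a cardiac factor that can pair with TWIST1, was higher by 0.45 (adjusted p = 0.00455). Its call was lost with DESeq2 and without WT library 1, and 11.7% of its windows are shared with Hand2os1.

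The start peaks were strong for both TWIST genes, with folds of 22.5 in KO and 16.8 in WT at Twist1 and 17.9 and 20.5 at Twist2. Otherwise the loci were unlike. Twist1 had only 2 KO and 3 WT peaks, all with a partner in the other list, and its density was higher than that of 5.15% and 8.86% of tested genes. The protein-coding gene Ferd3l falls within its window. Twist2 had 22 KO and 18 WT peaks. In 1 list only were 8 of the KO peaks (36.4%, beside 23.7% of all KO peaks) and 3 of the WT peaks (16.7%, beside 24.4% of all WT peaks). Of those 8, 2 had a -log10 q of at least 5, at 14.9 kb upstream and 79.7 kb downstream, each with a fold of 4.68. The highest KO peak of the locus was intronic, 22.2 kb from the start, with a fold of 19.1 in KO and 12.7 in WT.

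Snai1 (ENSMUSG00000042821, chr2:167538195-167542814, plus strand), the SNAIL gene most often linked to the onset of EMT, was lower in KO at the edge of the threshold. It had 11.3 and 11.5 CPM in KO against 15.9 and 13.8 CPM in WT, and the genotypes did not overlap. The means of 11.4 ± 0.138 and 14.9 ± 1.502 CPM (SD, n = 2 each) gave a log2 fold change of -0.38 (SE 0.15, edgeR adjusted p = 0.0440). Of 12 alternative settings 8 ended the call, among them DESeq2 (adjusted p = 0.277), scaling by library size only (0.0579), no filter on low counts, and leaving out KO library 1, KO library 2 or WT library 1. Its log2 value stayed between -0.49 and -0.28 in all of them.

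Snai2 (ENSMUSG00000022676, chr16:14705852-14709385, plus strand), also called Slug, had 28.7 and 30.8 CPM in KO against 29.6 and 31.4 CPM in WT. The libraries interleaved, and the log2 fold change was -0.04 (SE 0.096, edgeR adjusted p = 0.794). Over the settings it lay between -0.09 and 0.01. Per kb it was the higher of the 2 SNAIL genes in both genotypes, 14.7 against 7.03 CPM per kb in KO and 15.1 against 9.18 in WT.

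Of 21 tested corepressors and regulators of SNAIL stability, 15 were not called, 2 rose and 4 fell, with a median of -0.03. The share called over all tested genes was 35.7%. Ajuba, a LIM protein that recruits corepressors to SNAIL, rose from 33.7 and 37.4 CPM to 53.5 and 55.5 CPM (log2 fold change 0.61, SE 0.081, edgeR adjusted p = 8.85e-07). The other was Fbxw7, a ubiquitin ligase subunit, at 0.24. Pak1, a kinase that phosphorylates SNAIL, fell by 0.53 on the log2 scale. The ubiquitin ligase subunits Btrc and Fbxl5 fell by 0.35 and 0.26, and both lost their calls with DESeq2 and without 1 WT library. The other gene that fell was Ezh2, given above. Kdm1a, Rcor1, Hdac1 and Hdac2, the core of the demethylase complex that SNAIL recruits, had log2 fold changes from -0.23 to -0.03, and none was called; 24.9% of the Hdac1 windows are shared with pseudogenes.

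The epithelial genes that these factors repress were mostly at low levels. Cdh1, Crb3, Esrp1, Grhl2 and Ovol1 had fewer than 4 counts in every library. Of 10 tested genes 6 rose and none was called lower, with a median of 0.40. Cdh3 went the other way, with both KO libraries below both WT libraries. Its log2 fold change of -0.65 (SE 0.26) did not pass the edgeR test (adjusted p = 0.05097). Dsp, which encodes the desmosomal protein desmoplakin, rose from 8.27 and 10.6 CPM to 19.4 and 18.0 CPM (log2 fold change 0.98, SE 0.15, edgeR adjusted p = 8.87e-06). Esrp2, a splicing regulator of epithelia, rose by 1.23 on the log2 scale, and Cldn3 and Cldn4, tight junction claudins, by 0.48 and 1.11. Krt19, a keratin that is also a mesothelial marker, rose from 103 and 94.8 to 143 and 133 CPM (log2 fold change 0.49), whereas 4 of the 6 tested mesothelial markers fell. Jup (plakoglobin) rose by 0.32. The sums of the mesothelial markers were 273 and 264 CPM in KO against 272 and 268 CPM in WT with Krt19 and 130 and 131 CPM against 169 and 173 CPM without it. The part of such cells in the epithelial values was not tested.

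Of 16 tested mesenchymal genes of EMT, 4 rose, 6 fell and 6 were not called, with a median of -0.04. Mmp3, a stromelysin, fell from 2543 and 2575 CPM to 1344 and 1359 CPM (log2 fold change -0.92, SE 0.023, edgeR adjusted p = 3.35e-22). Postn (periostin) and Sparc, matricellular proteins of activated fibroblasts, fell by 0.79 and 0.24. Itga5, the fibronectin receptor subunit, rose from 141 and 138 CPM to 367 and 369 CPM (log2 fold change 1.40, SE 0.043). Cdh2 and Vim, the usual mesenchymal markers, were not called at 0.01 and 0.06. The list thus held large changes in both directions beside a Snai1 that was slightly lower and a Snai2 that was not called.

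Snai1 lay in the densest region of the 10, with 21 KO and 23 WT peaks, a density above that of 88.8% and 91.9% of tested genes. The protein-coding genes Rnf114 and Spata2 fall within its 50 kb. Its start peak had folds of 14.5 in KO and 12.7 in WT, but the highest peak stood 32.1 kb downstream at 32.3 in KO and 32.9 in WT, higher than 98.9% and 99.4% of the lists. All 7 peaks in 1 list only had a -log10 q under 5. The Snai1 promoter (RefSeq, GRCm38.p6, gene strand, chr2:167537945-167538244) is shown because it carries the E-box that SNAIL proteins bind, CACCTG on this strand and CAGGTG on the other, 126 bases before the start.
Snai1 promoter: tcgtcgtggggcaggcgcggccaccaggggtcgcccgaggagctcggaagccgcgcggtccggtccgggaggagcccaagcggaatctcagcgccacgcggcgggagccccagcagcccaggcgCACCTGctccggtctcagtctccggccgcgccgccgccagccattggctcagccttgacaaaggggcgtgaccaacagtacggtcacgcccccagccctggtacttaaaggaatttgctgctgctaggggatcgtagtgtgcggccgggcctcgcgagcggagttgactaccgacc
This E-box was in 20.2% of all promoters, and of the 9 promoters of 8 of the factors it was in 2, those of Snai1 and the distal start of Runx1. The promoter was rich in G and C, at 70.0%, above 90.4% of promoters.

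Snai2 had 3 peaks in each list. Its start peak had folds of 25.9 in KO and 19.3 in WT. The peak with the largest gap in fold between lists at any of the 10 loci lay 30.0 kb upstream, at 84.6 in WT and 28.5 in KO, higher than 99.98% of the WT list and 97.8% of the KO list. All of its bases, 100% in either list, are marked as repeats in the genome sequence, as are those of 1.03% of KO peaks and 1.40% of WT peaks over their whole length, and the part of mapping to repeats in its height was not tested. The 201 bases around its WT summit (chr16:14675776-14675976, plus strand) are shown for that reason, with CAGGTG in capitals.
Snai2 upstream peak: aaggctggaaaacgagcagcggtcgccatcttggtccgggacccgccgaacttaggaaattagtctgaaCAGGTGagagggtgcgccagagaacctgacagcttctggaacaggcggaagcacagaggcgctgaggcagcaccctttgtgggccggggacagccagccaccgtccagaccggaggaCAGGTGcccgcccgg
The E-box letters appear 2 times in it and were in 13.9% of all WT peak windows. The only WT peak without a KO partner and with a -log10 q of at least 5, 26.7 kb downstream with a fold of 4.93, is also made up wholly of repeat bases.

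Prrx1 (ENSMUSG00000026586, chr1:163245119-163313710, minus strand) fell in KO. It had 30.1 and 30.8 CPM in the KO libraries and 45.1 and 44.8 CPM in the WT libraries, so the genotypes were far apart and the libraries of each close together. The means of 30.5 ± 0.559 and 44.9 ± 0.209 CPM (SD, n = 2 each) gave a log2 fold change of -0.56 (SE 0.085, edgeR adjusted p = 6.92e-06), or 1.48-fold lower. Only the assumed BCV of 0.2 ended the call (adjusted p = 0.492). Sox9, Twist2 and Prrx1 were thus lower by close amounts, 1.44- to 1.48-fold, while Sox4 and Snai2 overlapped between genotypes.

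The other EMT and mesenchymal factors moved both ways. Of 10 tested, 3 rose, 1 fell and 6 were not called, with a median of 0.11, while 35.7% of all tested genes were called. Meox1, a homeobox factor reported in activated cardiac fibroblasts, rose from 25.1 and 24.997 CPM to 40.3 and 37.9 CPM (log2 fold change 0.64, SE 0.093, edgeR adjusted p = 3.57e-06). Tbx18, an epicardial T-box factor, was higher by 0.32 and Foxc1, a forkhead factor, by 0.88, and both lost their calls with DESeq2. Tbx18 also shares 15.9% of its exon windows with D030062O11Rik, on the opposite strand. Zeb1, a zinc finger repressor of epithelial genes, was lower by 0.26 (adjusted p = 0.0389) and lost that call with DESeq2 and under several other settings. Prrx2, the nearest relative of Prrx1, had at most 1.55 CPM in any library and was not called.

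The Prrx1 locus held 12 peaks in each list. The start peak had folds of 17.0 in KO and 16.4 in WT and was 5474 and 4135 bases wide, wider than 99.5% and 98.8% of peaks. Of these, 3 KO peaks and 2 WT peaks were in 1 list only, and all 3 KO peaks and 1 WT peak had a -log10 q of at least 5. The highest of them, at a fold of 9.35 in KO, lay beyond the 3' end of the gene, 104.4 kb from the start. Others were an intron peak 40.5 kb from the start and a peak 50.01 kb upstream, each with a fold of 5.10, and in WT an intron peak 42.8 kb from the start with 4.93. The promoter is printed because it holds TAATTA, letters bound by paired-type homeobox factors such as Prrx1 itself, beside GGAATG (TEAD) (RefSeq, GRCm38.p6, gene strand, chr1:163313601-163313900).
Prrx1 promoter: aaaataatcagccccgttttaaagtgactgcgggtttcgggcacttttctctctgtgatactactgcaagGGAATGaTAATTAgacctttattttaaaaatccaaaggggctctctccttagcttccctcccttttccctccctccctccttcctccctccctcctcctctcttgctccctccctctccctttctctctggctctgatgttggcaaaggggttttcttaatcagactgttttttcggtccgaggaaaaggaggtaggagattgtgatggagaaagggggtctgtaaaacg
The TAATTA begins 173 bases before the RefSeq start and the TEAD letters 180 bases before it. They were in 5.29% and 14.7% of all promoters.

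Across the 9 promoters the motifs were few. TEAD letters were in 3 (Prrx1, the proximal start of Runx1 and Sox4), the SOX letters AACAAT in 1 (Twist1, beside 10.7% of all promoters) and the CAGA letters in 2 (Sox4 and Twist1, beside 21.0%). No promoter of the 9 held the TWIST E-box CAGATG, the AP-1 letters or a CArG box, which were in 17.2%, 7.81% and 1.63% of all promoters. Among peaks of the loci, RUNX letters were in 17.6% of KO and 16.6% of WT peaks, beside 15.6% and 15.8% of all peaks in each list. AP-1 letters were in 17.6% and 15.3%, beside 13.2% and 11.8%. The homeobox letters TAATTA were in 4.1% and 5.5%, beside 2.66% and 2.77%, and the SNAIL E-box CAGGTG in 9.5% and 9.8%, beside 13.8% and 13.9%. The TWIST E-box was in 13.5% of KO and 19.0% of WT locus peaks, beside 16.95% and 16.82%, below in 1 list and above in the other. SOX letters were in 9.5% and 9.2%, beside 7.83% and 7.85%, and TEAD letters in 14.2% and 14.1%, beside 14.06% and 13.7%. CAGA letters were in 18.2% and 19.0%, beside 20.79% and 20.51%, and a CArG box in 0.7% and 1.8%, beside 1.01% and 0.91%. These shares rest on 1 to 31 locus peaks and were not tested.

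The TGFβ, BMP and Notch pathways are known to induce several of these factors. Of 26 tested genes of the TGFβ, BMP and Notch pathways, 6 rose, 4 fell and 16 were not called, with a median of 0.03. Over all tested genes 35.7% were called, and the list was not tested against that share. The ligands Tgfb2 and Tgfb3 rose, Tgfb2 from 46.1 and 44.6 CPM to 83.9 and 83.6 CPM (log2 fold change 0.89, SE 0.068, edgeR adjusted p = 3.08e-11) and Tgfb3 from 23.98 and 22.3 CPM to 48.7 and 50.1 CPM (1.09). Bmp4 and the BMP effector Smad1 rose by 0.79 and 0.42 on the log2 scale. Smad7, the inhibitory SMAD that TGFβ itself induces, fell by 0.56 (adjusted p = 7.58e-06). Smad4, the common partner of the SMAD effectors, fell by 0.51 (edgeR adjusted p = 0.0121), the BMP receptor Bmpr2 by 0.53 and the ligand Bmp6 by 0.58. Tgfb1, the receptors Tgfbr1 and Tgfbr2 and the effectors Smad2 and Smad3 were not called, with log2 fold changes from -0.16 to -0.01. The Notch effectors Hey1 and Heyl rose at low levels, by 1.55 and 2.33, while Hes1 was not called at -0.01.

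**Figure D5:**
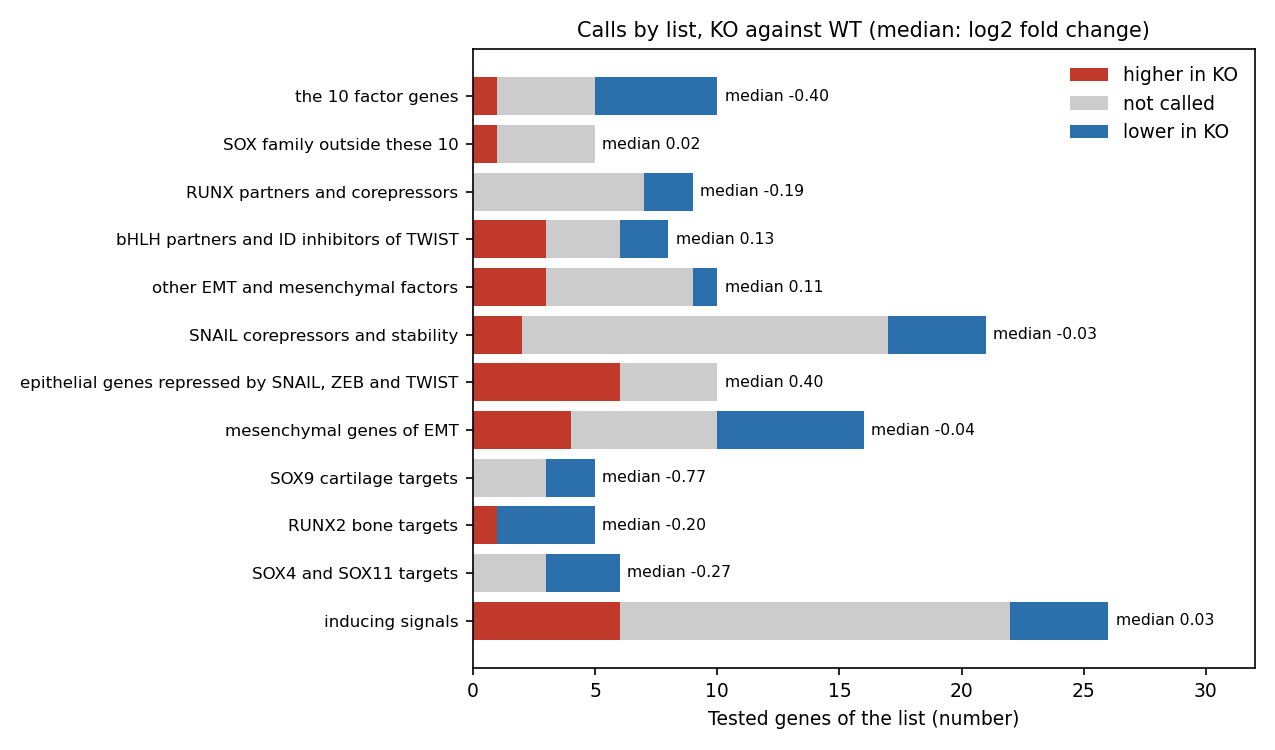
Number of tested genes in each list that were higher in KO, not called or lower in KO by edgeR at an adjusted p of 0.05, with the 10 factor genes in the same form. Epithelial genes show 6 higher and 0 lower of 10, SOX9 cartilage targets 0 higher and 2 lower of 5, and the 10 factors 1 higher and 5 lower. Over all tested genes 18.3% were higher and 17.4% lower.

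Genes whose log2 CPM lay closest to that of a factor over the 4 libraries, after centring, were found for the 3 called factors with the largest change. For Sox11 they were Mboat2 (distance 0.297), Dnaaf5 (0.319) and Lmod1 (0.402). For Prrx1 they were Ctsc (0.0177), Phf11d (0.0308) and C1s1 (0.0309), and for Twist2 Nagk (0.0164), Pappa (0.0201) and Rpp38 (0.0216), among 10000 genes with a mean of at least 4 CPM. With 4 libraries in 2 groups, such closeness describes these libraries only.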

How the data were processed

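RNA-seq was measured in 2 KO and 2 WT libraries and ATAC-seq in 1 of each. Per the labels' protocols, RNA reads of 150 bp went through Trim Galore 0.6 and FastQC and then STAR 2.5.3a, which placed them on mm10. The authors deposited estimated counts per gene (10.8 to 12.2% are not whole numbers). The program that counted is not given in the sources used here, nor is its annotation. The protocols speak of TPM, but the deposited values are not on that scale. For ATAC-seq, per the submitters' processing notes, reads were aligned with Bowtie2 2.3 and peaks called with MACS2, whose version is not given in the sources used here, nor is its threshold. The deposited peak lists hold a score, a fold (ratio to background), a −log10 p-value, a −log10 q-value and a summit offset. No read depth was given for these 2 libraries.

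Whole counts had been assumed when the test was planned. The estimates were rounded and the planned test was kept: edgeR 4.0.16 in R 4.3.3, filterByExpr with a minimum count of 10, TMM factors, a quasi-likelihood test of genotype with p-values adjusted by Benjamini and Hochberg's method over all 12192 genes (threshold 0.05). An SE is the size of the log2 fold change over the square root of F. The fit left 2 residual degrees of freedom and had a common BCV of 0.0311. DESeq2 1.42.0 and the other alternatives are described in the closing section. Replicates differed by more than sampling noise, with a chi-square per degree of freedom of 1.95 in KO and 1.75 in WT, beside 16.3 between genotypes, so all 4 were kept.

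Of 25746 genes, 25712 were found in GENCODE M21 (GRCm38, the assembly also called mm10) and 25535 had identical coordinates. Start sites came from it for 12190 of the 12192 tested genes. Peaks were counted over each gene and 50 kb either side, and at a start site within 1 kb, and an overlap of at least 1 base made a peak shared. Promoter sequences came from RefSeq (GRCm38.p6), with 9 promoters for 8 of the factors. Bases in a promoter are counted from its RefSeq start, which for several factors differs from the GENCODE start used for peaks. Peak windows span 100 bases either side of a summit. Motif letters were searched on both strands. Exon windows of 100 bases found elsewhere among exons are given as shared.

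The 10 factors and the lists of other genes were chosen with earlier results of these data known. Named genes were all 10 factors, the 4 called genes of smallest p in each list (or the 2 of highest CPM where none was called), members behind counts of 5 or fewer, and for the 3 called factors with the largest change the 3 nearest genes by Euclidean distance of centred log2 CPM. Other list genes are named as measured beside them. Named peaks were the highest, the start peak and those in 1 list only with a −log10 q of at least 5; any other was chosen after its values were seen.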

Additional observations from a re-analysis of the deposited data

How the results depend on the processing

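The 12 alternatives for RNA were library size scaling, RLE factors, no filter on low counts, DESeq2, the edgeR exact test, an assumed BCV of 0.1 or 0.2, a replicate block and leaving out each of the 4 libraries. None reversed a direction that had been called. The count of 4352 changed genes became 2058 with DESeq2, 1780 with a BCV of 0.1 and 398 with a BCV of 0.2, and lay between 3392 and 3674 with 1 library left out. The 6 changed factors became 1 with a BCV of 0.2 and lay between 4 and 6 with 1 library left out. Of 47 named genes, 14 lost their call with a BCV of 0.1, 34 with 0.2, 12 with DESeq2, 4 with no filter, 3 with library size only and 3 to 9 with 1 library left out. These 47 are Acta2, the 10 factors and the called genes of smallest p in each list. They include the 4 factors that were not called and so had no call to lose. Other genes named in the text were not checked in this way. The labels name no batch for same-numbered libraries. Over all tested genes, the difference between libraries 1 and 2 in KO correlated at 0.00236 with that in WT. With 1 such difference per genotype, this cannot settle whether the numbers mark a pairing. A replicate block gave 4408 genes and 6 factors and changed none of the 47 calls. Peaks in 1 list only numbered 29 in KO and 37 in WT. With both lists first limited to a −log10 q of at least 5 there were 24 and 14, which include peaks whose partner was itself left out. Asking for an overlap of at least 0.5 of both peaks gave 48 and 63. A window of 10 kb gave 24 for WT and 73 KO peaks in both lists, and one of 100 kb gave 57 and 179, beside 119 at 50 kb. With 2 libraries a genotype the spread is poorly known, Sox11 rests on 10 and 20 counts in WT, and no peak value has a replicate.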
